A study of Mus musculus with 35 samples.

Results

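The 9 genes described here are Car3, Cfd, Lep, Retn, Adipoq, Rbp4, Agt, Nampt and Nnat. Most encode proteins that adipocytes secrete, the adipokines, and Car3 encodes an enzyme abundant in lipid-filled adipocytes. Nnat, an imprinted gene studied in neurons and in adipocyte differentiation, is neither and was listed with them by name. They are 9 of the 55421 gene rows counted in interscapular brown adipose tissue (iBAT), the heat-producing fat pad between the shoulder blades, and they were picked by name because Car3 and Cfd were among the largest falls after prolonged cold. All 9 names matched 1 row each. The falls of Car3 and Cfd from 2 days of cold onwards, and all values at 4 days, are therefore given below as a description with no test.

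RNA was read from the iBAT of 35 male C57BL/6J mice aged 9 to 10 weeks, 5 in each of 7 groups, with 1 library per mouse. The control mice were kept at room temperature (24 °C), and the other groups spent 6 hours or 1, 2, 3, 4 or 5 days at 6 °C. The mice were of the inbred wild-type strain with no transgene and received no agent. Mice in the cold were housed singly without nesting material and control mice in colony housing, so cold and housing cannot be told apart. White fat was trimmed from the pads, and the remaining pad holds adipocytes, stromal cells, vessels, immune cells and some adjoining muscle. In a bulk sample, fewer cells of a type and less RNA per cell cannot be told apart.

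The libraries held 3846016 to 6047247 counts, of which mitochondrial genes took 33.6% to 46.2% and the ribosomal-repeat transcript Gm42418 took 7.81% to 16.3%. None of the 70 pairs of libraries within a group held identical values. Every level below is in normalized CPM, a gene's counts scaled to a library of constant size over all 35 libraries. Each library reads the 3' ends of transcripts, so a level is compared between mice and not between genes. A log2 fold change comes from edgeR's quasi-likelihood test of 2 groups of 5 mice, its error is a standard error (SE), and its p-value is adjusted over all genes tested. A gene counts as called where that adjusted p is below 0.05. The summed level of 12 brown adipocyte markers was 6197 to 8328 CPM at room temperature and 14086 to 17003 CPM after 6 hours, with 0 of the 12 at 0, so markers of the labelled tissue were present.

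Leptin (Lep) reports the size of the fat stores to the brain, and adiponectin (Adipoq) is a circulating adipocyte protein known for its association with insulin sensitivity. Adipsin (Cfd) is the serine protease that starts the amplification step of the alternative complement pathway, and carbonic anhydrase 3 (Car3) is a very abundant cytosolic enzyme of adipocytes, liver and slow muscle. Brown fat is not the main source of leptin, and its adipocytes are known to carry more and larger lipid droplets at warm temperatures, when their appearance is closer to that of white adipocytes.

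The upstream windows of 4 genes are shown because these genes lost counts in the cold and yet followed different courses: Lep was low from 6 hours onwards, Adipoq had group means of 37.1% to 46.3% of the control mean from 1 day onwards, Cfd went on falling, and Nnat returned. Each run is the 250 bases before the transcription start, 5′ to 3′ on the gene's own strand, from RefSeq on the mouse build GRCm38.p6. Capitals mark matches, on either strand, to the CCAAT/enhancer-binding motif TTNNGCAA in Lep and to the CCAAT box in Adipoq.
Lep, chr6:29059971-29060220, plus strand: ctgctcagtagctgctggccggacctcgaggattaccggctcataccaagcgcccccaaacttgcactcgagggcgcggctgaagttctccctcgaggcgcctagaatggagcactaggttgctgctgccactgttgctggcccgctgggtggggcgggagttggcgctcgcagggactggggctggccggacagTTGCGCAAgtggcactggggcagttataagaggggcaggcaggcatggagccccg
Adipoq, chr16:23146286-23146535, plus strand: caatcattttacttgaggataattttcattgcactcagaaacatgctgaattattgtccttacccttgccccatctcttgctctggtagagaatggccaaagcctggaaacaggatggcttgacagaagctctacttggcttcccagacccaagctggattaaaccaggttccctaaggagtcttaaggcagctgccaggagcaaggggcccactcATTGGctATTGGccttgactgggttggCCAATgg
Cfd, chr10:79890603-79890852, plus strand: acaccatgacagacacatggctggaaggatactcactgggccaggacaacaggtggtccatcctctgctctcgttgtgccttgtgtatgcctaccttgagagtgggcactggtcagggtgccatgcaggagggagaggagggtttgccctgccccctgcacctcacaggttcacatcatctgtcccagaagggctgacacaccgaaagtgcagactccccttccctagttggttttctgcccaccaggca
Nnat, chr2:157559828-157560077, plus strand: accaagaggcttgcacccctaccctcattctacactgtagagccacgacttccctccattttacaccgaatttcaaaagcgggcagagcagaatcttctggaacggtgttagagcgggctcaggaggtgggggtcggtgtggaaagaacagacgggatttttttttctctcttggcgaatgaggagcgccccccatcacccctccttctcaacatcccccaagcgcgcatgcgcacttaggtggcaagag

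RefSeq windows were found for 8 of the 9 genes. The Lep match TTGCGCAA lay at bases -55 to -48 from the start, and TTNNGCAA stood in 9.564% of the 32851 mouse promoter windows of the same length. Adipoq held 3 CCAAT boxes between bases -34 and -3, a motif present in 33.85% of the windows. The TATA motif TATAAA, present in 12.368% of the windows, stood at bases -30 to -25 of Agt and at -28 to -23 of the second Rbp4 promoter, which also held TTATGCAA. The Cfd, Retn, Nampt and Nnat windows held no match to those 3 motifs or to the cAMP response element TGACGTCA, the E-box CACGTG, the glucocorticoid response element or the direct repeat bound by PPAR and RXR, each searched on both strands. None of the 7 motifs stood in all 4 windows shown.

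The genes that were called against room temperature all fell. At 6 hours Car3, Lep, Adipoq and Nampt were called lower, 4 of the 8 genes that passed the filter, and 0 were higher, where 42.5% of all 10593 genes tested were called (21% lower and 21.5% higher). At 1 day Cfd and Nnat joined these 4, which made 6 of 8 lower and 0 higher, beside 36.7% called over all genes (17.8% lower and 18.9% higher). At 2 days 4 of 6 genes given a test were lower (Lep, Adipoq, Rbp4 and Nnat), beside 31.2% called over all genes (14.7% lower and 16.4% higher). At 3 days 3 of 7 were lower (Lep, Adipoq and Nnat), beside 33.8% (15.5% lower and 18.3% higher), and at 5 days 3 of 7 (Lep, Adipoq and Nampt), beside 38.8% (18.6% lower and 20.2% higher). The counts of 0 higher were from edgeR, and DESeq2 also gave 0 at each of these times. At an unadjusted p below 0.05, 1 gene was higher at 6 hours and 1 at 3 days, and 0 at 1, 2 and 5 days. At 4 days, where the genes were not tested, 38% of all genes were called, 18.6% lower and 19.4% higher.

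Steps between cold groups do not use the control mice. Between 6 hours and 1 day Car3, Cfd, Adipoq and Nnat were lower, 4 of 7 tested, and 0 were higher by edgeR, by DESeq2 or at an unadjusted p below 0.05, beside 16.9% of all genes called (7.75% lower and 9.19% higher). From 1 day to 5 days 1 of 6 tested, Nnat, was called, and it was higher, beside 19.4% of all genes called (10.7% higher and 8.68% lower). Below, it is also said where 2 groups of 5 mice did not overlap. Over all genes tested, every cold mouse lay below every control mouse for 12.9% at 6 hours, 11.8% at 1 day, 9.1% at 2 days, 10.3% at 3 days, 11.7% at 4 days and 11.1% at 5 days, and above for 15.6%, 13.2%, 11.1%, 11.6%, 13.4% and 13.5%. Between 6 hours and 1 day 6.16% were separate downwards and 5.91% upwards, and from 1 day to 5 days 6.21% and 6.67%. The median log2 fold change of the 8 genes with a value was -0.47 at 6 hours and -1.29 at 1 day, beside -0.03 and -0.02 over all genes. Since Car3 and Cfd chose the list, and since the comparisons with room temperature share their control mice, these counts and medians describe the list and are not independent of each other.

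Car3 lay on chr3:14863512-14872523 (GRCm38, plus strand), and at 1 day it had the largest log2 fold change of the 9 genes. The 5 room temperature mice had 5780, 6411, 6245, 6420 and 6136 CPM. After 6 hours the values were 4482, 2666, 3059, 2688 and 2379 CPM, and after 1 day 471, 478, 533, 488 and 344 CPM. All mice at 6 hours lay below all control mice, and all mice at 1 day lay below all mice at 6 hours. The mean went from 6198 ± 262 (SD, n = 5) to 3055 ± 834 (n = 5) at 6 hours, a 2.06-fold difference (log2 fold change -1.04, SE 0.14, edgeR adjusted p = 8.78e-06). Against room temperature the difference at 1 day was 13.4-fold (log2 fold change -3.75, SE 0.13, edgeR adjusted p = 5.92e-12). Those 2 comparisons used the same control mice as the contrast that chose the gene. The step from 6 hours to 1 day used none of them, and it was itself 6.55-fold (log2 fold change -2.71, SE 0.17, edgeR adjusted p = 1.32e-08).

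The later values of Car3 stayed far below the control values, and the group mean was higher at 5 days than at 2 days. They were 437, 431, 227, 597 and 402 CPM at 2 days, 477, 638, 449, 695 and 878 CPM at 3 days, and 369, 606, 614, 688 and 660 CPM at 4 days. The 5 mice at 5 days had 699, 1577, 599, 628 and 686 CPM. Described with no test, the group mean stood at 6.76% of the room temperature mean at 2 days and at 13.5% at 5 days, and all 5 mice at 5 days lay above all 5 mice at 1 day. The mean of 838 ± 415 CPM (SD, n = 5) at 5 days rested in part on replicate 2 with 1577 CPM, and the log2 fold change from 1 day to 5 days was 0.85 with this mouse and 0.50 without it. Skeletal muscle also makes Car3, so the muscle remaining on the pad was read beside it. The 7 muscle markers, each above 0 in every group, summed to between 72.2 and 920 CPM in the control mice, whose Car3 stayed within 5780 to 6420 CPM, and to between 63.3 and 1077 CPM in the mice at 1 day, whose Car3 stayed within 344 to 533 CPM. These markers are Acta1, Ckm, Mylpf, Tnnt3, Tnnc2, Myh1 and Myh4, and none was chosen for slow muscle, where Car3 is made. The part of muscle in the Car3 values was not tested. Of the 14 other carbonic anhydrases listed, 7 passed the filter at 6 hours. Car13 rose from 13.2 to 37.4 CPM at 6 hours (log2 fold change 1.47, SE 0.12) and was at 20.4 CPM at 5 days (0.61, SE 0.15). Car11 fell at 6 hours (-0.81, SE 0.27). Car2, named after its values were seen, was the other enzyme called higher at 6 hours (0.49), and no carbonic anhydrase of this list was called lower at 5 days by edgeR, against 2 by DESeq2.

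**Figure D1:**
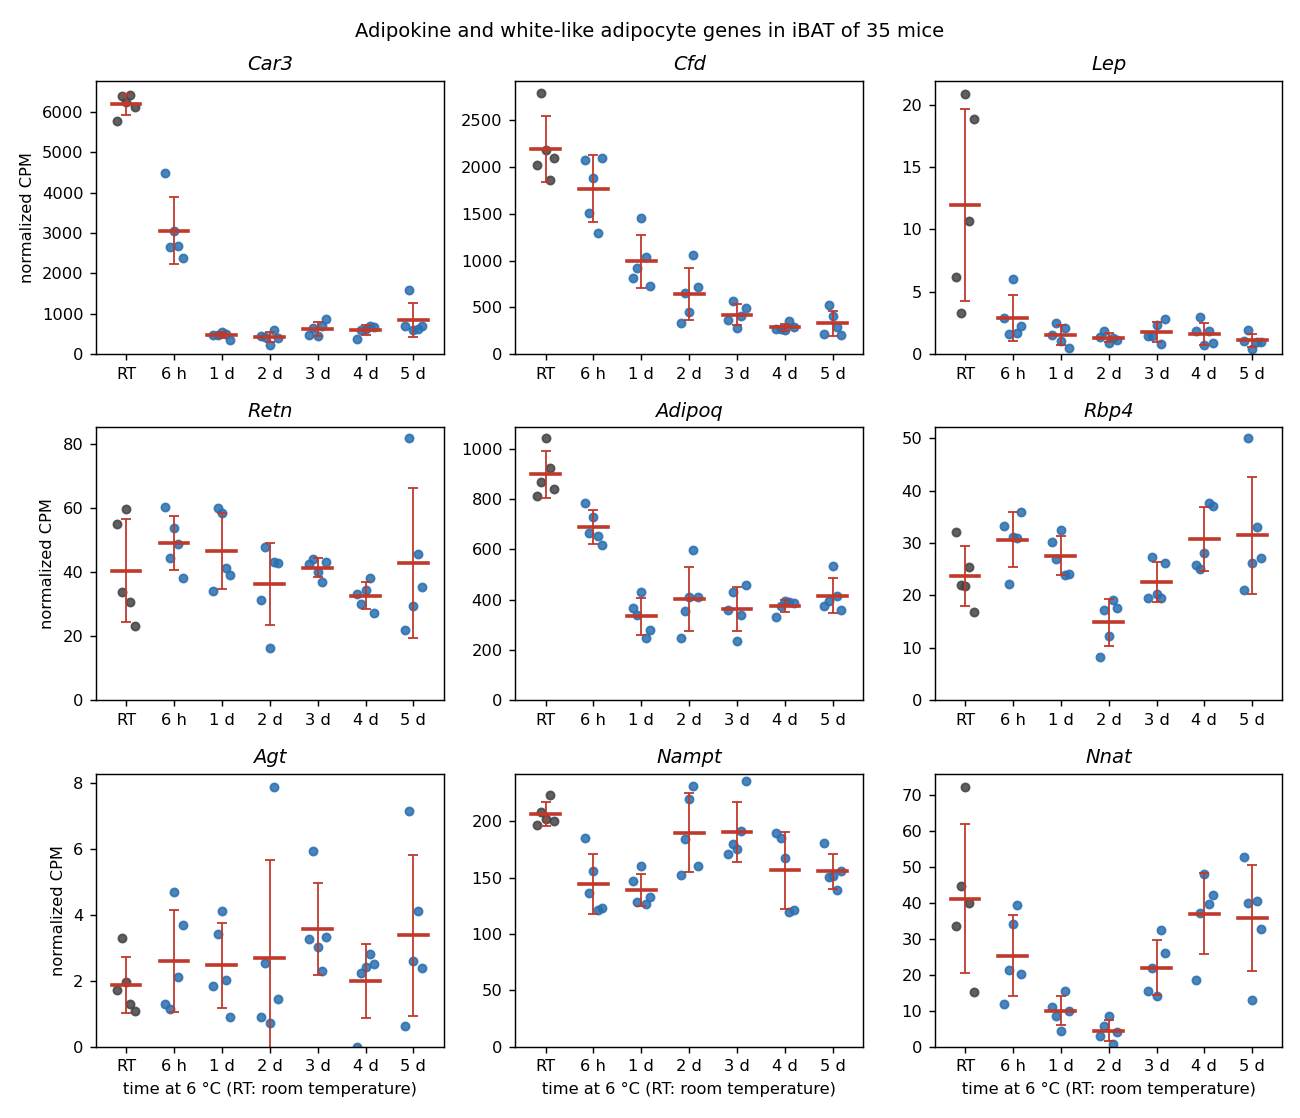
Normalized CPM of each of the 9 genes (y axis, linear, from 0) in every mouse (points) by group (x axis: room temperature, RT, then time at 6 °C), with the mean as a red bar and the SD as whiskers (n = 5 per group). Car3 went from 5780 to 6420 CPM at room temperature to 344 to 533 CPM at 1 day, Cfd fell over several days, Nnat dipped to 0.79 to 8.45 CPM at 2 days and came back, and Retn groups overlapped throughout.

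Cfd (chr10:79890853-79892655, plus strand) fell over several days. Room temperature values were 2024, 2792, 2189, 1865 and 2099 CPM, and those at 6 hours were 2075, 1506, 1883, 1293 and 2096 CPM. These groups overlapped, and the difference was not called (log2 fold change -0.33, SE 0.13, edgeR adjusted p = 0.0544). It was called with library sizes alone (-0.52), with no filter (-0.32) and with the replicate number as a block (-0.34), and also without control replicate 4 or without replicate 1 or 5 at 6 hours (-0.39 to -0.38). At 1 day the mice had 811, 918, 1457, 1039 and 727 CPM, all below every control mouse, with a mean of 990 ± 286 CPM (SD, n = 5) against 2194 ± 355 CPM (n = 5). The difference was 2.22-fold (log2 fold change -1.15, SE 0.17, edgeR adjusted p = 5.90e-05), again with the control mice of the contrast that chose the gene. Between 6 hours and 1 day, without those mice, it was 1.77-fold (log2 fold change -0.83, SE 0.17, edgeR adjusted p = 0.00309).

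The group means of Cfd went on downwards to 4 days. The values were 335, 649, 445, 1060 and 713 CPM at 2 days, 366, 570, 273, 409 and 493 CPM at 3 days, 265, 271, 260, 351 and 289 CPM at 4 days, and 210, 519, 405, 294 and 206 CPM at 5 days. As a share of the room temperature mean, the group means went from 80.7% at 6 hours through 45.1%, 29.2% and 19.2% to 13.1% at 4 days and 14.9% at 5 days. Neighbouring groups in this order overlapped throughout. These later values are a description, with no test. The other genes of the alternative complement pathway were called in both directions. Of 7 tested, 2 were called lower and 0 higher at 6 hours, and 2 were higher and 1 lower at 5 days. DESeq2 gave 1 lower at 6 hours. Over all genes, 21% were lower and 21.5% higher at 6 hours, and 18.6% and 20.2% at 5 days. The membrane regulators Cd59a (log2 fold change -0.36, SE 0.09, at 6 hours) and Cr1l (-0.46, SE 0.11, at 5 days) were the largest falls, and the C3a receptor C3ar1, which macrophages carry, was the largest rise (1.26, SE 0.32, at 5 days). The summed level of 10 macrophage and dendritic markers was 98.0 to 219 CPM at room temperature and 133 to 434 CPM at 5 days, with 0 markers at 0 in either group, and its part in the C3ar1 result was not tested. Cfb, the substrate of adipsin, was counted at 0 in all libraries. Whether its reads were lost in the counting, for example to an overlapping gene, was not tested. The 0 therefore does not show that Cfb was not expressed.

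Lep (chr6:29060220-29073877, plus strand) was low in this tissue and fell within 6 hours. The control mice had 6.17, 3.29, 20.9, 10.7 and 18.8 CPM, a wide spread within 1 group. At 6 hours the values were 2.88, 1.62, 6.04, 1.65 and 2.22 CPM, and 4 of these 5 mice lay below all control mice. The mean was 12.0 ± 7.70 CPM (SD, n = 5) at room temperature and 2.88 ± 1.84 CPM (n = 5) at 6 hours, a log2 fold change of -2.07 (SE 0.45, edgeR adjusted p = 0.00137). From 1 day onwards every mouse lay below every control mouse. The 1 day values were 1.49, 2.51, 1.07, 2.04 and 0.46 CPM, the 2 day values 1.36, 1.85, 0.90, 1.31 and 1.15 CPM, and the 3 day values 1.40, 1.44, 2.31, 0.77 and 2.83 CPM. The 4 day values were 1.81, 2.93, 0.69, 1.80 and 0.90 CPM, and the 5 day values 1.07, 1.95, 0.44, 0.98 and 1.00 CPM. The log2 fold change against room temperature was -2.99 (SE 0.49) at 1 day, -3.18 (SE 0.48) at 2 days, -2.77 (SE 0.47) at 3 days and -3.44 (SE 0.49) at 5 days, with edgeR adjusted p-values of 1.79e-04, 1.21e-04, 2.76e-04 and 2.56e-05. Between 1 day and 6 hours the counts were too low for the filter, and exact permutation of the log2 CPM values (two-sided) gave p = 0.135, or 0.714 adjusted over 6 such tests, where 0.00794 is the smallest p possible.

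White adipocytes are the usual source of leptin, so markers of white fat were read beside Lep. The summed level of the 11 white adipocyte and white depot markers was 159 to 194 CPM at room temperature, 128 to 152 CPM at 6 hours and 113 to 163 CPM at 5 days. In the room temperature group 1 of the 11 markers was at 0 throughout, and in the 6 hour and 5 day groups 0 were. Nrip1 alone had a mean of 84.5 CPM at room temperature and 47.5 CPM at 5 days, so it took a large part of the sum. Of the 7 markers tested at 6 hours, 2 were called lower and 1 higher, and at 5 days 1 was lower and 0 higher by edgeR (0 genes higher also by DESeq2). Over all genes, 21% were lower and 21.5% higher at 6 hours, and 18.6% and 20.2% at 5 days. Hoxc8, a patterning gene of the subcutaneous white depots, fell from 9.30 to 5.00 CPM at 6 hours (log2 fold change -0.92, SE 0.20), and the white adipocyte marker Slc7a10 rose from 2.83 to 4.98 CPM (0.80, SE 0.31). Their part in the fall of Lep was not tested. Of the leptin receptor and its signalling genes, 1 of 6 tested was higher and 1 lower at 6 hours. Stat5a, a transcription factor downstream of cytokine receptors, fell by 1.28 (SE 0.23) on the log2 scale at 6 hours and by 1.28 (SE 0.17) at 5 days. Ptpn1, a phosphatase that dampens leptin and insulin signalling, rose by 0.37 (SE 0.12) and by 0.40 (SE 0.12).

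Adipoq (chr16:23146536-23158028, plus strand) fell within 1 day and was below every control mouse at all later times. Room temperature mice had 812, 868, 1044, 923 and 839 CPM, mice at 6 hours had 784, 663, 728, 653 and 617 CPM, and mice at 1 day had 366, 339, 431, 250 and 280 CPM. The 3 groups did not overlap. The log2 fold change was -0.40 (SE 0.10, edgeR adjusted p = 0.00261) at 6 hours, where a fit of all 7 groups together gave an adjusted p of 0.0601, and -1.43 (SE 0.14, edgeR adjusted p = 8.29e-07) at 1 day. Between 6 hours and 1 day it was -1.04 (SE 0.13, edgeR adjusted p = 4.29e-05). The later mice had 247, 354, 412, 596 and 411 CPM at 2 days, 358, 430, 236, 340 and 459 CPM at 3 days, 332, 375, 393, 390 and 386 CPM at 4 days, and 375, 395, 534, 414 and 360 CPM at 5 days. The group means stood at 37.1% to 46.3% of the control mean from 1 day onwards. The difference from room temperature was -1.16 (SE 0.18) at 2 days, -1.29 (SE 0.15) at 3 days and -1.12 (SE 0.12) at 5 days on the log2 scale, with edgeR adjusted p-values of 1.34e-04, 6.22e-06 and 9.32e-07. From 1 day to 5 days the log2 fold change of 0.31 (SE 0.14) was not called (edgeR adjusted p = 0.135), but without 1 day replicate 3 it was 0.43 and called (edgeR adjusted p = 0.0407), so a constant level after 1 day is not shown.

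Adipoq is a gene of mature adipocytes, and other genes of that kind were read beside it. The 15 mature adipocyte genes listed gave summed levels of 17490 to 21971 CPM at room temperature, 23469 to 28826 CPM at 1 day and 21098 to 23280 CPM at 5 days, with 0 genes at 0. At 5 days 5 of these 15 genes were called higher and 4 lower, beside 20.2% and 18.6% over all genes. Gpd1, an enzyme of glycerol supply, was the largest rise (log2 fold change 1.35, SE 0.16) and Dgat2, which completes triglyceride synthesis, the largest fall (-0.80, SE 0.13). Of the 8 genes for the assembly of adiponectin, its receptors and their adaptors, 1 was higher and 1 lower at each of 6 hours and 5 days. With library sizes alone in place of scaling factors, 0 were higher and 5 lower at 6 hours and 1 was higher and 4 lower at 5 days, and DESeq2 gave 0 higher at 6 hours. Ero1a, an oxidase of the endoplasmic reticulum that takes part in adiponectin assembly, went from 6.21 to 12.3 CPM at 5 days (log2 fold change 0.98, SE 0.17), and Appl1, an adaptor of the adiponectin receptors, from 27.2 to 15.3 CPM (-0.84, SE 0.13). The receptors themselves, named here after their values were seen, were not called at 5 days: Adipor1 had a log2 fold change of 0.29 (edgeR adjusted p = 0.0591) and Adipor2 of -0.09 (edgeR adjusted p = 0.563).

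**Figure D2:**
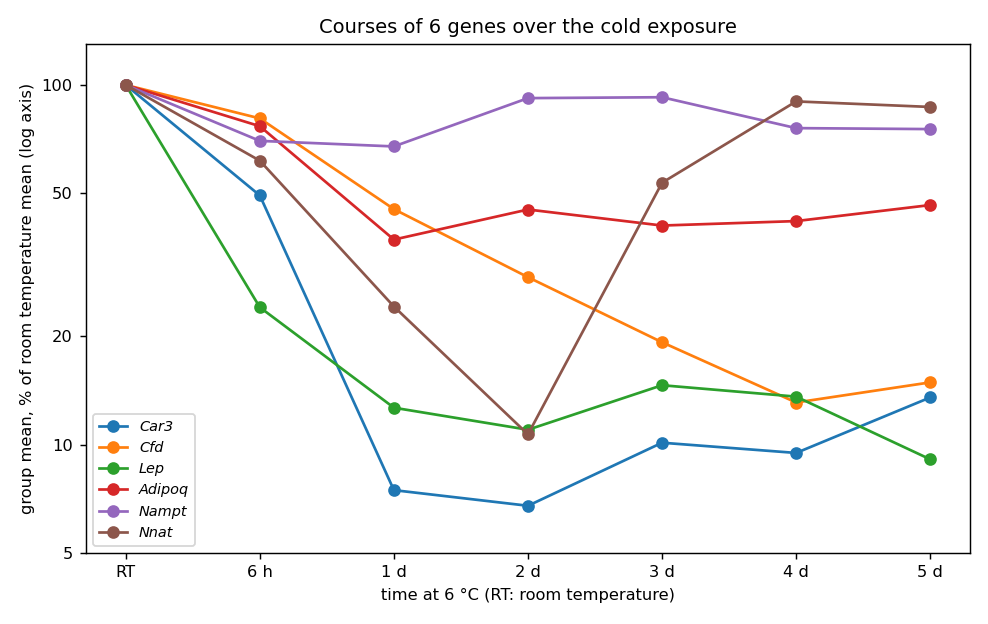
Group mean of 6 genes as a percent of the room temperature mean (y axis, log scale) by time at 6 °C (x axis, equally spaced categories, n = 5 mice per point). Car3 and Lep were under 15% from 1 day onwards, Cfd reached 13.1% at 4 days, Adipoq stood at 37.1% to 46.3%, and Nnat went from 10.7% at 2 days to 90.0% at 4 days.

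Nnat (chr2:157560078-157562522, plus strand), an imprinted gene for a small membrane proteolipid studied in neurons and in adipocyte differentiation, fell and then returned. At room temperature the mice had 33.5, 44.7, 72.2, 39.9 and 15.2 CPM, and at 6 hours 11.8, 21.3, 34.0, 39.4 and 20.2 CPM. These groups overlapped and the difference was not called (log2 fold change -0.71, SE 0.32, edgeR adjusted p = 0.0783), although it was called with library sizes alone (-0.90), with no filter (-0.70) and with the replicate number as a block (-0.67), and without control replicate 5 or 6 hour replicate 4 (-0.91 each). The values then went to 11.1, 8.68, 4.48, 15.6 and 9.87 CPM at 1 day and to 2.87, 5.80, 8.45, 0.79 and 4.04 CPM at 2 days. At 2 days all 5 mice lay below all control mice, with a mean of 4.39 ± 2.91 CPM (SD, n = 5) against 41.1 ± 20.7 CPM (n = 5). The log2 fold change was -2.06 (SE 0.34, edgeR adjusted p = 1.56e-04) at 1 day and -3.19 (SE 0.41, edgeR adjusted p = 3.01e-05) at 2 days, and the step from 6 hours to 1 day was -1.36 (SE 0.30, edgeR adjusted p = 0.00421).

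The return of Nnat spanned 3 days to 5 days. Values were 15.4, 22.0, 14.1, 32.6 and 26.0 CPM at 3 days, 18.4, 37.0, 47.8, 39.7 and 42.0 CPM at 4 days, and 52.6, 40.0, 12.9, 40.5 and 32.7 CPM at 5 days. At 3 days the mean was still 53.5% of the control mean (log2 fold change -0.89, SE 0.30, edgeR adjusted p = 0.0318). That call was lost without any 1 of 3 control mice (replicates 2, 3 and 4) or any 1 of 3 mice at 3 days (replicates 1, 2 and 3), where the log2 fold change ranged from -0.90 to -0.60, and by DESeq2 (adjusted p = 0.101). By 5 days the difference from room temperature was -0.20 (SE 0.32, edgeR adjusted p = 0.652). From 1 day to 5 days Nnat rose 3.63-fold (log2 fold change 1.86, SE 0.31, edgeR adjusted p = 4.77e-04), and 4 of the 5 mice at 5 days lay above all mice at 1 day. Nnat lies inside the body of Blcap, which runs on the opposite strand and shares no exon with it. Blcap had 82.6 ± 13.0 CPM (SD, n = 5) at room temperature, 47.0 ± 1.55 CPM at 6 hours, 49.0 ± 9.54 CPM at 1 day, 59.8 ± 6.04 CPM at 2 days and 62.1 ± 7.30 CPM at 5 days. Both genes were lower at 6 hours than at 5 days. From 6 hours to 2 days, however, the mean of Blcap went from 47.0 to 59.8 CPM and that of Nnat from 25.3 to 4.39 CPM. The log2 fold change of Blcap against room temperature was -0.75 (SE 0.15) at 1 day and -0.48 (SE 0.13) at 2 days, where that of Nnat was -2.06 and -3.19. The gene that does overlap an exon of Nnat, the miRNA gene Gm23134 on the opposite strand, had 2 counts in total. The strand setting of the counting is not given in the sources used here. Whether reads of these genes were kept apart from those of Nnat was not tested. Of the other imprinted growth genes listed, 5 of 9 tested at 5 days were lower and 0 higher by edgeR (0 also by DESeq2). Over all genes, 18.6% were lower and 20.2% higher at that time. Dlk1, an inhibitor of adipocyte differentiation, was the largest fall of this list (log2 fold change -1.27, SE 0.37). At 6 hours Peg3 rose (1.24, SE 0.23) and Ndn fell (-0.90, SE 0.17).

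Nampt (chr12:32819545-32853349, plus strand), the rate-limiting enzyme of NAD salvage and also a secreted protein, showed smaller differences in an early and a late step. The control mice had 197, 208, 202, 223 and 200 CPM. Mice at 6 hours had 185, 136, 155, 121 and 123 CPM, and mice at 1 day 147, 128, 161, 127 and 133 CPM, all below every control mouse. The log2 fold change was -0.54 (SE 0.11, edgeR adjusted p = 8.12e-04) at 6 hours and -0.57 (SE 0.10, edgeR adjusted p = 2.37e-04) at 1 day. At 2 days the values of 153, 185, 220, 231 and 160 CPM and at 3 days those of 171, 180, 175, 192 and 236 CPM overlapped with the control values, and neither difference was called (log2 fold changes -0.13, SE 0.12, and -0.11, SE 0.10). Mice at 4 days had 190, 185, 167, 119 and 121 CPM and mice at 5 days 180, 150, 152, 139 and 156 CPM. The 5 day mice were again all below the control mice (log2 fold change -0.42, SE 0.10, edgeR adjusted p = 0.00225). With library sizes alone in place of scaling factors, the differences at 2 and 3 days were called as well (-0.37 and -0.26).

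Around Nampt, the genes of NAD synthesis and use were called in both directions. Of 13 tested, 2 were higher and 6 lower at 6 hours, and 4 were higher and 2 lower at 5 days. Over all genes, 21.5% were higher and 21% lower at 6 hours, and 20.2% and 18.6% at 5 days. Nnmt, which methylates nicotinamide and so removes it from salvage, rose from 29.1 ± 11.0 CPM (SD, n = 5) to 219 ± 35.0 CPM (n = 5) at 6 hours (log2 fold change 2.90, SE 0.20) and was at 50.2 CPM at 5 days. Naprt, which starts NAD synthesis from nicotinic acid, fell from 13.5 to 3.39 CPM at 6 hours (-2.02, SE 0.22) and stood at 8.61 CPM at 5 days (-0.66, SE 0.18). Nmnat1, the nuclear enzyme that follows Nampt in the pathway, rose from 6.85 to 15.2 CPM at 5 days (1.14, SE 0.17).

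**Figure D3:**
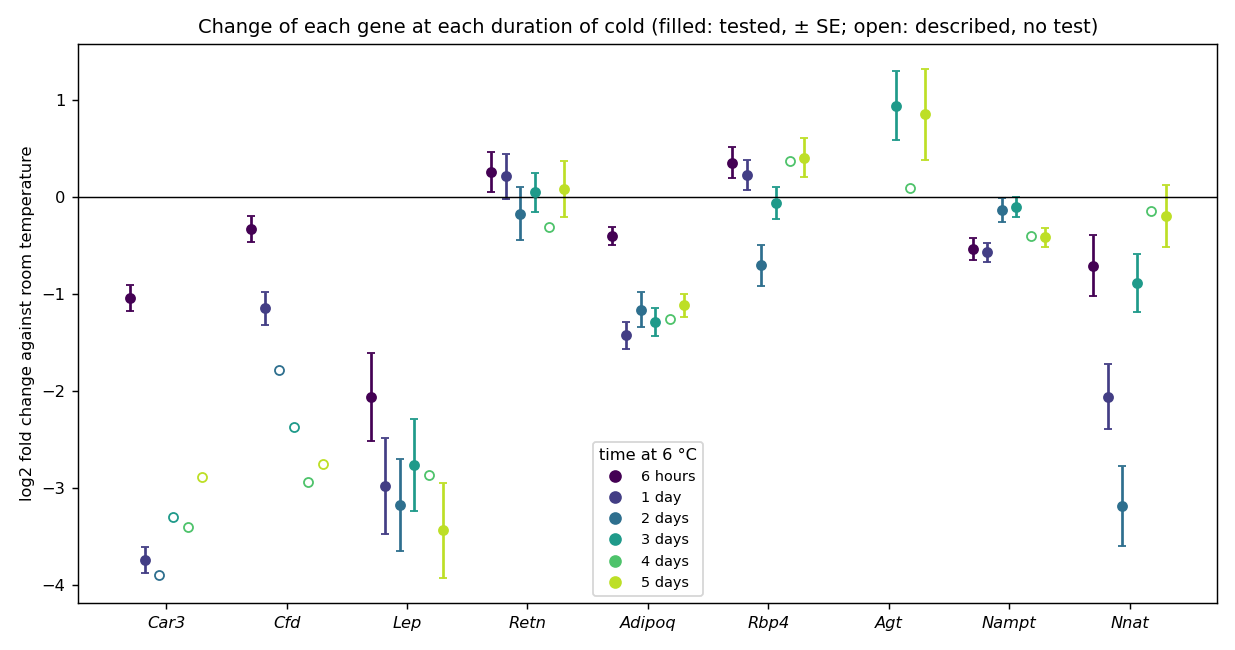
Log2 fold change of each gene (x axis) against room temperature (y axis) at each of the 6 durations of cold (colours), from edgeR fits of 5 against 5 mice. Filled points with SE bars were tested and open points are described with no test. Agt has points at 3, 4 and 5 days, where it passed the filter. The points of Nnat reach -3.19 at 2 days and are back at -0.20 at 5 days, whereas those of Adipoq lie between -1.43 and -1.12 from 1 day onwards.

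The other 3 genes had few calls against room temperature, which does not show that their levels stayed the same. Rbp4 (chr19:38116629-38125281, minus strand), the blood carrier of retinol, had 16.8 to 32.2 CPM in the control mice and 8.29 to 19.2 CPM at 2 days. The groups overlapped, and the log2 fold change of -0.71 (SE 0.21, edgeR adjusted p = 0.0191) at 2 days was not called without control replicate 1 (-0.58) or without 2 day replicate 3 (-0.64). Its range was 22.2 to 35.9 CPM at 6 hours, 24.0 to 32.4 CPM at 1 day, 19.5 to 27.3 CPM at 3 days, 25.0 to 37.7 CPM at 4 days and 21.0 to 49.9 CPM at 5 days, with no other call. The 5 day difference of 0.40 on the log2 scale (edgeR adjusted p = 0.126) was called with no filter (0.44) and without 5 day replicate 1 (0.52), and that at 6 hours (0.35, edgeR adjusted p = 0.0820) with no filter (0.36), without control replicate 1 (0.49) and without 6 hour replicate 2 (0.46). All mice at 3 days lay above all mice at 2 days. Of the other genes of retinol transport and retinoic acid, 2 of 9 tested were higher and 2 lower at 6 hours. Over all genes, 21.5% were higher and 21% lower at that time. The intracellular retinol carrier Rbp7 rose from 8.42 to 41.7 CPM at 6 hours (log2 fold change 2.28, SE 0.17) and was at 27.5 CPM at 5 days (1.69, SE 0.19), while Rdh10, which oxidises retinol, fell from 8.85 to 4.44 CPM (-1.005, SE 0.23) and was at 5.14 CPM at 5 days (-0.80, SE 0.21). Ttr, the plasma partner of Rbp4, was at 0 in all libraries.

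Retn (chr8:3655770-3660110, plus strand), which encodes resistin, was not called in any comparison. The control mice had 23.3 to 59.8 CPM, and the cold mice ranged from 16.4 CPM at 2 days to 81.9 CPM at 5 days. The log2 fold change was 0.26 (SE 0.21, edgeR adjusted p = 0.332) at 6 hours and 0.08 (SE 0.29, edgeR adjusted p = 0.852) at 5 days. Its relative Retnla, made by macrophages among others, fell at 5 days (log2 fold change -0.74, SE 0.25), and Cap1, a candidate receptor of resistin, the other called gene of the resistin list, rose at 6 hours (0.44, SE 0.16) and at 5 days (0.63, SE 0.14).

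Agt (chr8:124556534-124569706, minus strand), the precursor of the angiotensins, was near the detection limit. It had 1.09 to 3.29 CPM in the control mice and 0 to 7.88 CPM in the cold mice, and the groups overlapped throughout. Where it passed the filter, the log2 fold change was 0.94 (SE 0.36, edgeR adjusted p = 0.0517) at 3 days and 0.85 (SE 0.47, edgeR adjusted p = 0.159) at 5 days. The 3 day difference was called with the replicate number as a block (0.94), without control replicate 2 (1.24) and without 3 day replicate 4 (1.07), and the 5 day difference without 5 day replicate 1 (1.12). At 6 hours, 1 day and 2 days, exact permutation tests (two-sided) gave p = 0.429, p = 0.476 and p = 0.881, where the smallest possible p was 0.00794. Among the other genes of the renin-angiotensin system, 1 of 6 tested was higher and 1 lower at 6 hours. Over all genes, 21.5% were higher and 21% lower at that time. The peptidase Mme fell at 6 hours (-0.69, SE 0.10), the receptor Agtr1a fell from 4.05 to 2.00 CPM at 5 days (-1.004, SE 0.35), Atp6ap2 rose at 6 hours (0.37, SE 0.13), and the aminopeptidase Enpep rose at 5 days (0.48, SE 0.16).

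The order of the group means separated few neighbours. For Car3 and for Adipoq, room temperature and 6 hours did not overlap, nor did 6 hours and the next highest group, 5 days. For Rbp4, 3 days and 2 days did not overlap. Every other pair of neighbouring groups, in each of the 9 genes, overlapped in its values.

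Mice of 1 duration also differed from each other, and some of these differences were shared between genes. After the mean of each duration had been removed from log2 CPM, Adipoq and Cfd were related over the 35 mice (Pearson r = 0.67, Spearman rho = 0.55, permutation p = 6.00e-04 and 0.00432, adjusted over 8 relations 0.00240 and 0.0115). Without the 2 mice farthest from the median in Adipoq, r was 0.52 (permutation p = 0.0125). In each pair the 2 mice were taken by the gene named first, so mice extreme in the other gene stayed in. Car3 and Cfd gave r = 0.58 and rho = 0.56 (permutation p = 0.00414 and 0.00282, adjusted 0.0110 and 0.0113), and r = 0.43 without the 2 mice (permutation p = 0.0173). Car3 and the white adipocyte marker Slc7a10 gave r = 0.72 and rho = 0.66 (permutation p = 1.10e-04 and 1.30e-04, adjusted 8.80e-04 and 0.00104), and r = 0.46 without the 2 mice (permutation p = 0.00761). Slc7a10 was the only marker of the 11 for white fat examined in this way. It had few counts, with a mean of 18.2 over the room temperature and 6 hour libraries. The other 5 relations did not pass: Cfd and Slc7a10 (r = 0.36, rho = 0.28, adjusted permutation p = 0.253 and 0.254), Lep and Retn (0.27, 0.30, 0.253 and 0.251), Lep and Slc7a10 (0.13, 0.11, 0.520 and 0.734), Nnat and the proliferation gene Top2a (0.29, 0.09, 0.295 and 0.761), and Nnat and Lep (0.01, 0.05, 0.955 and 0.805). The same mice were often highest in several genes: at 1 day replicate 3 was highest of its group in 6 of the 9 genes, as were 2 day replicate 4 and 5 day replicate 2. The 11 white fat markers summed to 137 CPM in the first of these mice, the highest of its group, to 124 CPM in the second, the third highest of 5, and to 163 CPM in the last, the highest of its group. Nrip1 made up much of that sum at room temperature, and its share in these mice was not separated. The part of white fat in the values of these mice was not tested. Their scaling factors were 0.924, 0.861 and 0.940, where the groups ranged from 0.884 to 1.02, 0.861 to 1.11 and 0.875 to 1.05. The part of library composition in the relations was not tested. How many other pairs of genes reach such an r was not counted, so the relations are not shown to be particular to these genes.

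**Figure D4:**
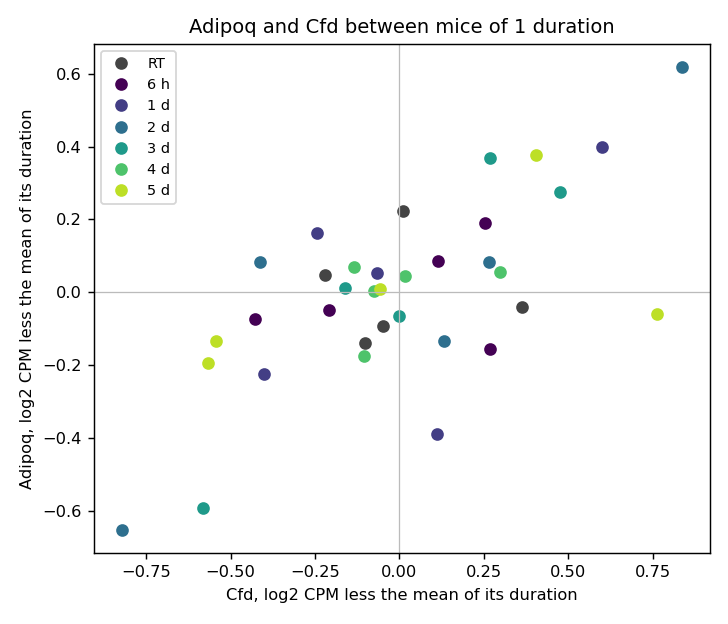
Adipoq (y axis) against Cfd (x axis), each as log2 CPM less the mean of its duration, for 35 mice coloured by duration. Mice high in Cfd for their duration tended to be high in Adipoq (r = 0.67, and 0.52 without the 2 mice farthest from the median in Adipoq).

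The genes with the most similar profiles differed between the 9 genes. The measure was Pearson r of log2 CPM over the 35 libraries, among 6173 genes, and since all libraries share the cold treatment it is a description. Car3 was most like Impdh1 (r = 0.92), Enpp2 (0.91) and Slc25a23 (0.90), and Adipoq most like Gm44386 (0.94), Aldh6a1 (0.93) and Slc25a23 (0.92). Cfd was most like Apoe (0.94), Gpx3 (0.93) and Acadsb (0.90), and Lep most like Enpp2 (0.82), Tspan4 (0.82) and Per3 (0.80). Lower values were found for Nampt, with Cdkn2c (0.78), Npc1 (0.71) and Nfic (0.68), for Retn, with Trf (0.71), Car5b (0.64) and Zfp503 (0.59), and for Rbp4, with Eif4g1 (0.69), Cox8b (0.69) and Pcnx (0.68). Agt was most like Prodh (0.68), Cyp2b10 (0.54) and Rapgef1 (0.54), and Nnat most like Eef2kmt (0.66), Lgals1 (0.65) and Gpx4 (0.64).

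Other secreted factors of white fat were called in both directions. Of the 20 listed, 11 were tested at 6 hours, with 1 higher and 4 lower. At 5 days 12 were tested, with 2 higher and 3 lower. DESeq2 gave 0 higher at 6 hours and 1 higher at 5 days. Over all genes tested, 21.5% were called higher and 21% lower at 6 hours, and 20.2% and 18.6% at 5 days. The list medians were -0.01 and -0.06 on the log2 scale. No list was tested against all genes. Angptl4, a fasting-induced inhibitor of lipoprotein lipase, fell from 98.7 ± 25.3 CPM (SD, n = 5) to 29.6 ± 1.82 CPM (n = 5) at 6 hours (log2 fold change -1.76, SE 0.14). Lpl itself was the largest rise among the mature adipocyte genes at that time (1.32, SE 0.10). Angptl2 fell from 40.0 to 15.4 CPM at 5 days (-1.39, SE 0.14), and C1qtnf12, a relative of adiponectin, rose from 34.2 to 63.6 CPM (0.89, SE 0.12). At 6 hours C1qtnf1, another relative, went from 2.40 to 4.13 CPM (0.75, SE 0.30). Nrip1, a corepressor of brown fat genes in white adipocytes, was the largest fall of the white fat markers at 5 days (-0.84, SE 0.21). With library sizes alone in place of scaling factors, the rises of Ptpn1, Atp6ap2, Cap1, Ero1a, C1qtnf1 and Slc7a10 at 6 hours and of Ptpn1, Enpep and Car13 at 5 days were not called, with no change of sign. DESeq2 did not call Ero1a, C1qtnf1 and Slc7a10 at 6 hours, and the same 3 rises and that of Enpep at 5 days were not called without the filter.

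Markers of the other cells of the pad were called as well, beside the genes above. Over all genes, 21.5% were higher and 21% lower at 6 hours, and 20.2% and 18.6% at 5 days. Of the brown adipocyte markers, 6 of 12 were higher and 2 lower at 6 hours, and 7 higher and 2 lower at 5 days. Both proliferation genes that were tested at 5 days were higher, and the summed level of the 6 was 5.97 to 8.91 CPM at room temperature, 2.77 to 5.92 CPM at 6 hours and 13.1 to 49.0 CPM at 5 days. Of 8 stromal markers, 1 was higher at 6 hours, and 1 was higher and 1 lower at 5 days. Macrophage and dendritic markers had 4 of 9 higher and 1 lower at 5 days and no call at 6 hours. For this list DESeq2 gave 0 lower at 5 days, and library sizes alone gave 1 lower at 6 hours. For the proliferation genes DESeq2 gave 2 lower at 6 hours and 4 higher at 5 days. Endothelial markers had 2 of 6 higher and 2 lower at 6 hours (1 lower by DESeq2) and 2 lower at 5 days. Their sum was 250 to 312 CPM at room temperature and 422 to 508 CPM at 6 hours. Erythroid markers had 3 of 5 higher at each time, skeletal muscle markers 4 of 7 lower at 5 days by edgeR and 0 by DESeq2, and Schwann cell markers 1 of 3 lower at 6 hours by edgeR and 0 by DESeq2. With library sizes alone, the stromal markers had 0 higher and 4 lower at 6 hours and 1 higher and 3 lower at 5 days, the erythroid markers had 0 higher at 6 hours, the muscle markers had 7 lower at 5 days, and the Schwann markers had 1 lower at 5 days. Among the other lists, library sizes alone gave 0 higher and 4 lower at 6 hours and 0 higher and 3 lower at 5 days for the white fat markers, 3 higher and 6 lower and then 2 higher and 6 lower for the mature adipocyte genes, 0 higher and 3 lower at 5 days for the renin-angiotensin genes, and 2 higher and 3 lower at 5 days for the NAD genes. Lymphocyte and luminal epithelial markers were too low for the filter, and DESeq2 gave 1 lymphocyte marker lower at 5 days. Krt8 and Cldn4 of the luminal list were at 0 in all libraries. The part of these cells in the levels of the 9 genes was not tested.

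**Figure D5:**
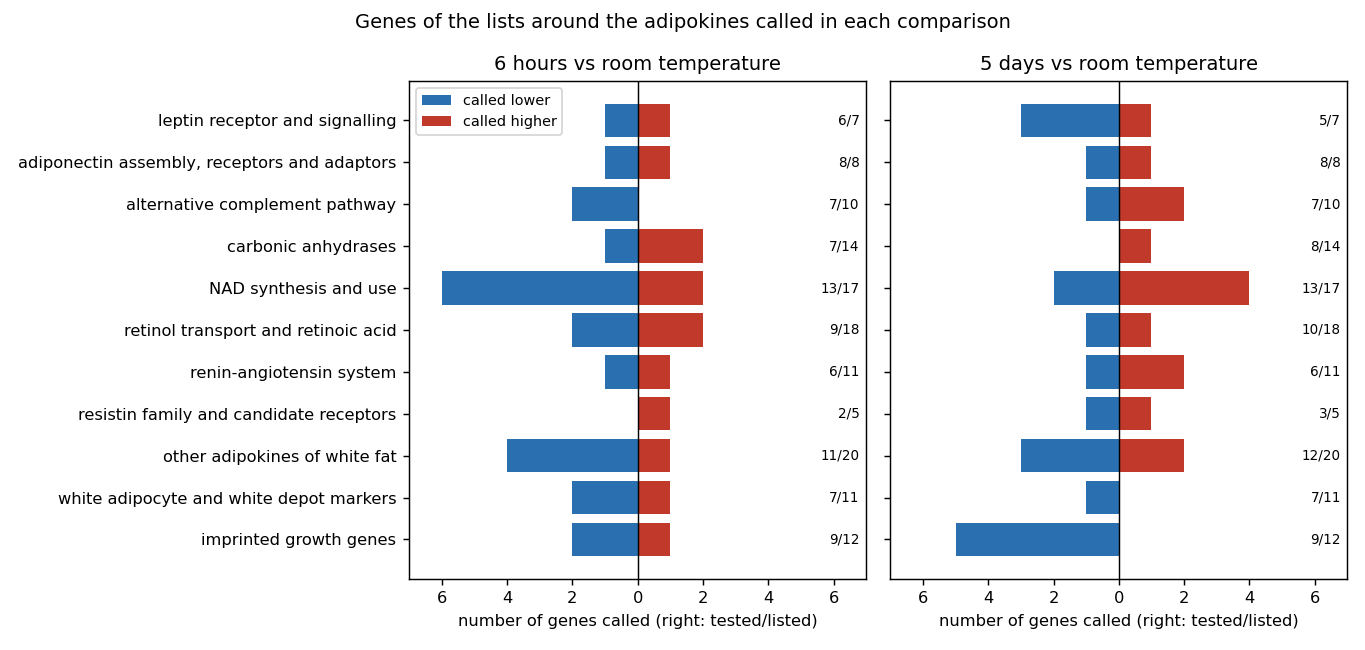
Number of genes called lower (blue, to the left of 0) and higher (red, to the right) by edgeR in 11 gene lists around the 9 genes, at 6 hours and at 5 days against room temperature, with the number tested and listed at the right of each panel. The list of NAD synthesis and use went from 6 lower and 2 higher at 6 hours to 2 lower and 4 higher at 5 days, and the imprinted growth genes from 2 lower and 1 higher to 5 lower and 0 higher. Over all genes, 21% were lower and 21.5% higher at 6 hours, and 18.6% and 20.2% at 5 days.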

How the data were processed

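RNA of 1 iBAT pad from each of 35 mice was sequenced as 3' tag libraries. Per the study's methods and the submitters' processing notes, the authors aligned reads with STAR 2.6.1d to GRCm38 and counted reads per gene with HTSeq 0.11.2. The deposited values are raw counts, and a tag near the transcript end cannot show splice forms. The 9 genes and the 22 gene lists were chosen with earlier results of these data known.

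Each comparison was a separate fit of 2 groups in edgeR 4.0.16 (R 4.3.3) with filterByExpr, TMM scaling and quasi-likelihood tests, adjusted by Benjamini and Hochberg's method across every gene tested, since the study states no 2-group test. Genes below the filter were compared by an exact permutation test of log2 CPM (prior count 2). Relations used 100000 resamples within durations. The code of the 2-group fits (for 6 hours against room temperature) and that of the relations were tested on simulated data. From each other list, the called genes with the largest rise and the largest fall at 6 hours and at 5 days (mean of at least 10 counts) are named. Alternatives were DESeq2 1.42.0, other scalings, no filter, all groups in 1 fit, the replicate number as a block, and leaving out each mouse. In the NAD list 16 of 17 symbols matched 1 row. Whether mice of a group came from separate litters is not stated. Replicate numbers did not pair the mice: correlations of same-numbered deviations ranged from -0.24 to 0.14.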

Additional observations from a re-analysis of the deposited data

Results flagged for a closer look

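In 6 of 63 sets of 5 mice (9 genes in 7 groups), 1 mouse stood apart from the other 4 by Dixon's criterion, which chance meets in about 1 of 20 sets. These were the lowest Car3 value at 4 days (369 CPM, replicate 1), the highest Car3 value at 5 days (1577 CPM, replicate 2), the highest Lep value at 6 hours (6.04 CPM, replicate 3), the highest Agt values at 2 days (7.88 CPM, replicate 4) and at 3 days (5.95 CPM, replicate 2), and the Agt value of 0 CPM at 4 days (replicate 1), which lies at the counting limit. The 4 day mouse low in Car3 is also the one with Agt at 0.

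The difference between 2 durations was itself tested and passed for 5 results. From 6 hours to 1 day the log2 fold change was -2.71 for Car3, -0.83 for Cfd, -1.04 for Adipoq and -1.36 for Nnat, and from 1 day to 5 days it was 1.86 for Nnat. No other gene of the list that edgeR tested was called in those 2 comparisons. From 1 day to 5 days Car3 (log2 fold change 0.85) and Cfd (-1.61) were described with no test. Lep in both comparisons, and Agt from 6 hours to 1 day, were below the filter.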

How the results depend on the processing

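The calls of Car3, Lep and Adipoq against room temperature from 1 day onwards, where tested, kept their direction and side of the threshold under every alternative run. Without scaling factors the median log2 fold change of all genes moved to between -0.25 and -0.15 against room temperature, and Retn then stood at -0.020 at 1 day, -0.092 at 3 days and -0.16 at 5 days, and Agt at -0.048 at 4 days, all opposite in sign to the main values and uncalled. Over all lists, library sizes alone gave 16 higher and 52 lower at 6 hours (31 and 31 with scaling factors), and 23 higher and 52 lower at 5 days (37 and 33). Over all genes the split at 6 hours was 1342 higher and 3399 lower, against 2280 and 2225 with scaling factors. Of the list of 9, the number called higher was 1 without the filter at 6 hours and at 5 days (Rbp4). Without 1 mouse it ranged from 0 to 1 at 6 hours (Rbp4, 0.49 without control replicate 1 and 0.46 without 6 hour replicate 2), from 0 to 1 at 3 days (Agt, 1.24 without control replicate 2 and 1.07 without 3 day replicate 4), from 0 to 2 at 5 days and from 1 to 2 between 1 day and 5 days, where Adipoq joined Nnat without 1 day replicate 3 (log2 fold change 0.43). The 2 at 5 days came without replicate 1, when Rbp4 (0.52) and Agt (1.12) were called. Depth limits Lep, Agt and Nnat, which had few counts per library.

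Replicate numbers did not pair the mice, and in no comparison did every mouse correlate best with its own number. With the number as a block, Cfd (-0.34) and Nnat (-0.67) were called at 6 hours, Agt (0.94) was called at 3 days, which made 1 gene higher there, and Nnat at 3 days was not (-0.82, adjusted p = 0.0539).

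Leaving out 1 mouse turned the sign of uncalled or untested values only. The ranges were -0.33 to 0.025 at 2 days, -0.10 to 0.22 at 3 days and -0.28 to 0.26 at 5 days for Retn, -0.16 to 0.041 from 6 hours to 1 day and -0.49 to 0.036 from 1 to 5 days for Retn, -0.17 to 0.068 at 3 days and -0.035 to 0.29 from 1 to 5 days for Rbp4, -0.053 to 0.42 at 4 days and -0.019 to 0.72 from 1 to 5 days for Agt, -0.36 to 0.15 at 4 days and -0.41 to 0.094 at 5 days for Nnat, and -0.10 to 0.063 from 6 hours to 1 day for Nampt. The relation of Nnat and Lep had r = -0.0040 with rlog values.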
